A study of Bos taurus with 8 samples.

Results

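Prostaglandins are local lipid signals that granulosa cells, the cells lining the ovarian follicle, need for ovulation. Their synthesis starts when a phospholipase A2 frees arachidonic acid from membranes. Cyclooxygenases turn it into an unstable endoperoxide, and terminal synthases convert that to single prostaglandins. Secreted prostaglandins act on receptors at the cell surface, are taken up by a transporter and are oxidised to inactive products inside cells. In the ovulating follicle the pathway is best known for the LH-induced cyclooxygenase, encoded by PTGS2, whose inhibition blocks follicle rupture.

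The genes described here are 8 genes of that route. They are PLA2G4A, the cytosolic phospholipase A2, PTGS1 and PTGS2, the cyclooxygenases, and PTGES and PTGIS, the synthases of prostaglandin E and of prostacyclin. PTGIR is the prostacyclin receptor, SLCO2A1 the prostaglandin transporter and HPGD the dehydrogenase that inactivates prostaglandins. Every probe whose platform symbol named 1 of them was taken. This gave 15 of the 43794 probes of the array, with 5 for HPGD, 3 for PTGS2, 2 for SLCO2A1 and 1 for each of the other genes. All 15 were among the 38453 probes bright enough to be tested, and the 8 genes stood among 14138 tested genes.

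RNA came from granulosa cells of Holstein Friesian cows at 3 times around the surge of luteinizing hormone (LH), 2 h before it (pre-LH), 6 h after it and 22 h after it. All 3 groups had been synchronised with norgestomet implants, estradiol valerate and prostaglandin, stimulated with FSH and given prostaglandin once more during that stimulation. In both post-LH groups GnRH given at implant removal induced the surge, and the ovaries were taken 8 h and 24 h after GnRH. The pre-LH ovaries were taken 2 h after implant removal. Pre-LH follicles measured 6 to 8 mm, 6 h follicles were above 8 mm and 22 h follicles were pre-ovulatory, so follicle size cannot be told apart from time. The cells were scraped from follicles whose oocyte and cumulus had been removed, and the labels describe mainly mural granulosa cells with some theca cells. The study used 30 cows, and the number of animals in a replicate is not given in the sources used here.

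Each of 8 2-colour arrays carried RNA of 1 post-LH replicate and 1 pre-LH replicate. One slide held the 4 arrays with 6 h RNA and another the 4 arrays with 22 h RNA, with the post-LH RNA in Cy5 on 2 arrays of each slide and in Cy3 on the other 2. In each channel 75.1% to 85.4% of probes were above background, that is, brighter than 95% of the negative control spots. Of 12 granulosa markers, 11 were above background in all 16 channels and FOXL2 was not. So were 14 of 14 fibroblast and smooth muscle markers and 13 of 13 tested endothelial markers. The same held for 9 of 10 theca and 12 of 14 tested leukocyte markers, so detection does not set granulosa cells apart. The pre-LH RNA of replicate 4 stood apart from that of replicates 1 to 3 on both slides. Across probes its normalised levels correlated with theirs on the other slide with r from 0.862 to 0.879, against 0.991 to 0.994 among replicates 1 to 3. It had less CYP19A1, the aromatase of estrogen synthesis (8.87 on both slides, against 10.2 to 10.7 in replicates 1 to 3). It had more of the granulosa hormone AMH (10.8 on both slides, against 9.1 to 9.47). The theca marker TCF21 was also higher in it (14.2 and 14.3, against 12.7 to 13.1). Mean levels of marker lists were higher for fibroblasts and smooth muscle (11.8 and 11.7, against 11.3 to 11.5) and endothelium (9.43, against 8.92 to 9.1). The leukocyte list was higher too (7.97 and 7.96, against 7.65 to 7.85). The theca list was lower (10.9 and 10.8, against 11.1 to 11.2), and the granulosa list was 11.3, within 11.1 to 11.4. A different cell mix was not tested. Pre-LH RNA of the same number on both slides correlated with r from 0.995 to 0.998. The design text gives 4 biological replicates per time for the 8 arrays that carry pre-LH RNA, so by that count pre-LH samples were used again. The labels do not say whether equal numbers mark the same pre-LH sample. The main fit held no term for such sharing, and an alternative took the replicate number as a block. That block takes differences between replicate numbers out of the SE of changes against pre-LH (HPGD at 6 h, 0.148 against 0.225). It therefore does not show what shared pre-LH samples do to those calls. Because pre-LH samples may be shared, the 6 h and 22 h comparisons are not read as independent of each other. Results that lean on replicate 4 are given below without it as well.

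Levels are normalised log2 intensities of 1 probe and are compared only within that probe. Changes are log2 ratios of post-LH over pre-LH RNA ± SE from 1 limma fit of all 8 arrays (n = 4 arrays per time). A change is called when its adjusted p, corrected over all tested probes, is under 0.05, and "rose" and "fell" are used only of called changes. The value of a gene is that of its brightest probe. Because whole follicle scrapings were measured, fewer cells of a type and less RNA per cell cannot be told apart.

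At 6 h, 4 of the 8 genes were called. PTGIS was the gene that rose, while PTGS1, PTGIR and HPGD fell. Among all tested genes 24.5% were called at 6 h, 11.6% up and 12.8% down. At 22 h, 6 of the 8 were called, against 20.5% of all tested genes (9.82% up and 10.7% down). PTGS2, PLA2G4A and PTGES rose, and HPGD, SLCO2A1 and PTGS1 fell. Between the times, 4 of the 8 differed, against 15.4% of all tested genes (7.79% up and 7.58% down). PTGS2, PLA2G4A and PTGES were higher at 22 h than at 6 h, and SLCO2A1 was lower. The 8 genes and the gene lists further on were chosen with earlier results of these data known. Their counts beside the shares of all genes are therefore not a test of any set. The median change of the 8 genes was -0.17 at 6 h and 0.08 at 22 h, and the medians of all tested genes were -0.0039 and 0.0054.

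PLA2G4A frees the arachidonic acid from which prostaglandins are made. On the 22 h arrays, replicates 1 to 4 had levels of 12.09, 12.62, 12.47 and 11.08 in 22 h RNA, against 8.90, 8.80, 8.75 and 8.13 in pre-LH RNA. The groups did not overlap, and replicate 4 was the lowest in both. The 4 ratios were 3.19, 3.83, 3.71 and 2.95, and PLA2G4A rose by 3.42 ± 0.14 (10.7-fold, limma adjusted p = 3.5e-05), the 17th largest rise among 14138 genes. On the 6 h arrays the levels were 8.49, 8.45, 8.34 and 7.80 in 6 h RNA, against 8.71, 8.69, 8.67 and 8.27 in pre-LH RNA. Each 6 h value lay below its own pre-LH value, while the ranges overlapped through the pre-LH value of replicate 4. The 6 h change was -0.32 ± 0.14 and was not called (adjusted p = 0.18, 95% interval -0.638 to 0.0081). With each time fitted alone it passed (-0.32, adjusted p = 0.0141). The change at 22 h exceeded that at 6 h by 3.74 ± 0.19 (adjusted p = 0.000166).

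PTGS2 encodes the inducible cyclooxygenase. Its brightest probe had levels of 12.56, 13.1, 12.83 and 12 in 22 h RNA, against 8.10, 7.19, 6.76 and 6.72 in pre-LH RNA on the same arrays. No 22 h value came near a pre-LH value. The ratios were 4.46, 5.91, 6.07 and 5.28, and PTGS2 rose by 5.43 ± 0.26 (43.2-fold, adjusted p = 5.7e-05), the largest fitted rise among the 14138 tested genes at 22 h. The raw spot intensities behind it were 5470, 8857, 9023 and 4235 in 22 h RNA and 135.7, 146.1, 93.3 and 73.1 in pre-LH RNA. The pre-LH spots lay just above their background thresholds of 123.6, 120.9, 72.7 and 72.4, so the size of the fold rests on signals near background. The rise was 6.43 in the authors' deposited log2 ratios (adjusted p = 6.34e-09).

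At 6 h the same PTGS2 probe had levels of 7.51, 7.19, 7.21 and 6.97 in 6 h RNA, against 6.84, 6.90, 7.10 and 6.97 in pre-LH RNA. The 6 h RNA was above background on 3 of the 4 arrays and the pre-LH RNA on 0 of 4. The fitted change of 0.27 ± 0.26 was not called (adjusted p = 0.588, 95% interval -0.349 to 0.882). Its size is inexact, since the pre-LH signal was below background. From the authors' deposited log2 ratios the same fit gave 0.53 and a call (adjusted p = 0.026). The fitted change at 22 h exceeded that at 6 h by 5.17 ± 0.37 (adjusted p = 0.00054), a size that is inexact for the same reason.

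The other PTGS2 probes were dimmer. The second was above background in 22 h RNA on all 4 arrays and in no pre-LH or 6 h RNA. Its levels were 10.11, 10.15, 10.09 and 9.44 in 22 h RNA, against 7.78, 6.65, 6.38 and 6.56 in pre-LH RNA. These mean levels put 22 h RNA at least 8.24-fold higher (adjusted p = 0.000204). That bound sets the mean normalised log2 level of 22 h RNA against that of pre-LH RNA, taken on each array as the higher of the probe's own level and the lowest level of any probe above background. It allows for the background and not for the spread of the replicates. The 95% interval of the fitted log2 change was 2.61 to 3.6. The third was also above background only in 22 h RNA, with levels of 7.08 to 7.33, against 6.85 to 7.11 in pre-LH RNA. Its fitted change at 22 h was 0.23 (1.18-fold, adjusted p = 0.00416, 95% interval 0.157 to 0.312). The same bound equals this fitted change and is no lower limit, and the size is inexact since the pre-LH signal was below background. All 3 probes were called at 22 h and none at 6 h. With the mean of the 3 probes as the value of the gene, the fitted rise at 22 h was 2.92 (adjusted p = 4.96e-05). Its size is inexact, since pre-LH RNA was below background for both dimmer probes.

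PTGS1 encodes the constitutive cyclooxygenase. Its levels were 8.13, 7.84, 8.13 and 7.53 in 6 h RNA, against 8.83, 8.62, 8.53 and 7.96 in pre-LH RNA. All 4 arrays showed the fall, and the groups overlapped through the low pre-LH value of replicate 4. PTGS1 fell by 0.58 on the log2 scale at 6 h (-0.58 ± 0.09, adjusted p = 0.00523). With median centring in place of loess that call was lost at a similar size (-0.63, adjusted p = 0.404). At 22 h its levels were 8.28, 8.24, 8.01 and 7.75, against 8.56, 8.63, 8.67 and 7.96 in pre-LH RNA. The 22 h change was -0.38 ± 0.09 (adjusted p = 0.0303), and the call was lost with the replicate number as a block (-0.38, adjusted p = 0.053) and in 8 of 21 alternatives in all, median centring among them (-0.45, adjusted p = 0.62). Without replicate 4 at both times it was -0.44 (adjusted p = 0.0805). The changes at 22 h and 6 h differed by 0.19 ± 0.13, which was not called (adjusted p = 0.405).

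**Figure D1:**
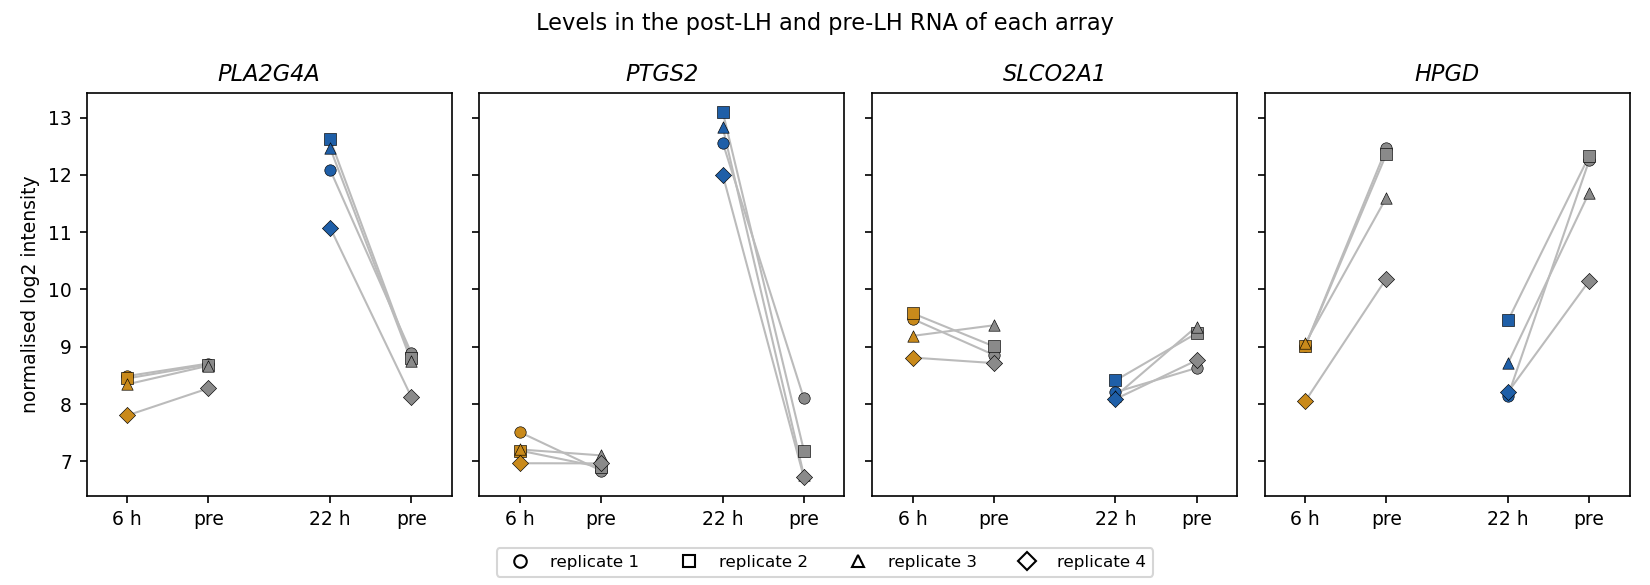
Normalised log2 intensity (y axis) of the brightest probe of PLA2G4A, PTGS2, SLCO2A1 and HPGD in post-LH RNA (left in each pair) and pre-LH RNA (right) on the 6 h and the 22 h arrays. Each line joins the 2 channels of 1 array, with 4 arrays per time. At 22 h the PTGS2 lines run between 12 to 13.1 in post-LH RNA and 6.72 to 8.10 in pre-LH RNA, and over both times the HPGD lines run between 8.05 to 9.46 in post-LH RNA and 10.15 to 12.46 in pre-LH RNA.

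PTGES, the inducible synthase that makes prostaglandin E from the cyclooxygenase product, gave a dim but detected signal on all 8 arrays. Its levels were 7.82, 7.63, 7.57 and 7.65 in 22 h RNA, against 7.52, 7.40, 7.28 and 7.25 in pre-LH RNA. The groups did not overlap, and the ratios of 0.31, 0.23, 0.29 and 0.39 were close together. PTGES rose by 0.31 ± 0.04 at 22 h (1.24-fold, adjusted p = 0.00184), a change of less than 1 log2 unit. Its size depended on the processing and ranged from 0.28 to 0.55 over the alternatives. It was 0.49 without background correction, 0.40 with an offset of 10 and 0.55 from the authors' deposited log2 ratios. At 6 h the change was -0.03 ± 0.04 (adjusted p = 0.692, 95% interval -0.111 to 0.0553). The difference between 22 h and 6 h was 0.33 ± 0.05 (adjusted p = 0.00764). With median centring both calls were lost at a similar size (0.34 at 22 h, adjusted p = 0.295, and 0.39 between the times, adjusted p = 0.719), and the difference was also not called with the background taken from negative controls (0.53, adjusted p = 0.133).

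PTGIS, the prostacyclin synthase, had levels of 9.77, 9.86, 9.67 and 9.12 in 6 h RNA, against 8.81, 8.85, 9.18 and 8.55 in pre-LH RNA. The ratios of 0.96, 1.00, 0.48 and 0.57 were all above 0, and PTGIS rose by 0.75 ± 0.12 at 6 h (adjusted p = 0.00687). With median centring it was 0.67 and not called (adjusted p = 0.277). On the 22 h arrays its levels were 8.67, 9.26, 9.84 and 9.02 in 22 h RNA, against 8.65, 8.89, 9.27 and 8.46 in pre-LH RNA. Replicate 1 showed almost no change (0.02), and the other ratios were 0.36, 0.57 and 0.55. The 22 h change of 0.38 ± 0.12 was not called (adjusted p = 0.0982), and without 22 h replicate 1 it was 0.53 and passed (adjusted p = 0.0261). The changes at 22 h and 6 h differed by -0.38 ± 0.17, which was not called (adjusted p = 0.248).

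PTGIR, the prostacyclin receptor, had levels of 7.93, 7.84, 7.99 and 7.82 in 6 h RNA, against 8.47, 8.28, 8.16 and 7.92 in pre-LH RNA. It fell by 0.31 on the log2 scale at 6 h (-0.31 ± 0.05, adjusted p = 0.00755), with the 6 h value lower on 4 of 4 arrays. Ratios on the arrays with 6 h RNA in Cy5 were -0.54 and -0.44, and those with it in Cy3 were -0.17 and -0.10. The call was lost without a dye effect in the model (-0.31, adjusted p = 0.0552) and with median centring (-0.36, adjusted p = 0.63). At 22 h the change was -0.14 ± 0.05 (adjusted p = 0.135), with replicate 4 at 0.11 and the others between -0.30 and -0.17.

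SLCO2A1 carries prostaglandins into cells. Its brighter probe had levels of 8.21, 8.41, 8.14 and 8.09 in 22 h RNA, against 8.63, 9.23, 9.35 and 8.76 in pre-LH RNA. The groups did not overlap, and SLCO2A1 fell by 0.78 on the log2 scale (-0.78 ± 0.11, 0.581-fold, adjusted p = 0.00424). The call was lost with the 22 h arrays fitted alone (-0.78, adjusted p = 0.0795) and with median centring (-0.90, adjusted p = 0.315), and the mean of both probes gave -0.40 (adjusted p = 0.00478). At 6 h the ratios were 0.63, 0.58, -0.18 and 0.10, and the change of 0.28 ± 0.11 was not called (adjusted p = 0.143). With each time fitted alone, that change passed (adjusted p = 0.0422). The difference between 22 h and 6 h was -1.06 ± 0.16 (adjusted p = 0.00718), and with median centring -1.09 (adjusted p = 0.683). The dimmer SLCO2A1 probe was not called in any of the 3 comparisons, with changes of 0.05 at 6 h and -0.02 at 22 h.

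HPGD catalyses the first step of prostaglandin inactivation. At 6 h its brightest probe had levels of 9.01, 9.01, 9.06 and 8.05 in 6 h RNA, against 12.46, 12.36, 11.6 and 10.19 in pre-LH RNA. At 22 h the levels were 8.14, 9.46, 8.72 and 8.21 in 22 h RNA, against 12.25, 12.33, 11.69 and 10.15 in pre-LH RNA. The groups did not overlap at either time, and pre-LH replicate 4 was the lowest pre-LH sample on both slides. HPGD fell by 2.87 on the log2 scale at 6 h (-2.87 ± 0.22, adjusted p = 0.000366) and its change at 22 h was -2.97 ± 0.22 (adjusted p = 0.00033). Among 14138 genes these were the third largest fall at 6 h and the fifth at 22 h. The changes at 22 h and 6 h differed by -0.10 ± 0.32 (adjusted p = 0.888), with a 95% interval from -0.852 to 0.651, so a difference of that size between the times was not detectable.

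The HPGD ratio was smallest in size in replicate 4 at both times, where the pre-LH level was lowest. The ratios at 6 h were -3.45, -3.35, -2.54 and -2.14 for replicates 1 to 4, and those at 22 h were -4.10, -2.87, -2.98 and -1.94. Raw pre-LH intensities on the 6 h slide were 6902, 5949, 2923 and 806.2, and on the 22 h slide 6512, 5784, 2962 and 797.1. Dye does not separate from number here, since replicates 3 and 4 had pre-LH RNA in Cy5 and replicates 1 and 2 in Cy3. Without replicate 4 at both times the changes were -3 ± 0.25 at 6 h and -3.20 ± 0.25 at 22 h (adjusted p = 0.00522 and 0.00398), an alternative chosen after the data were seen.

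**Figure D2:**
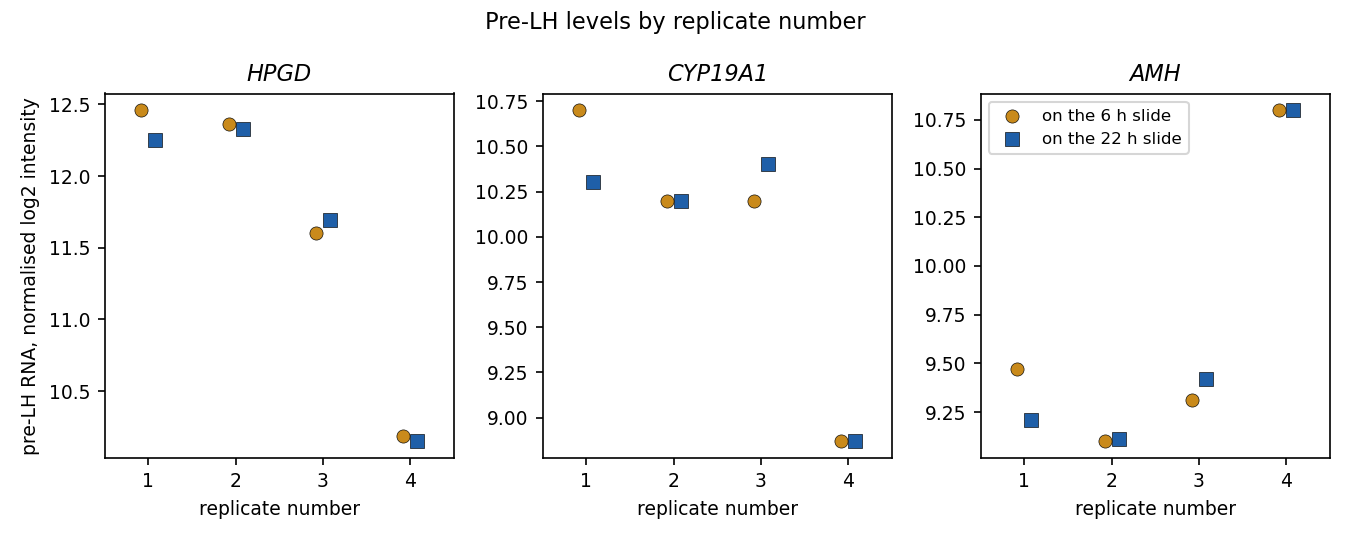
Normalised log2 intensity in pre-LH RNA (y axis) for HPGD and the granulosa genes CYP19A1 and AMH, by replicate number (x axis), with 1 point for the 6 h slide and 1 for the 22 h slide. Replicate 4 is lowest for HPGD (10.19 and 10.15) and CYP19A1 (8.87 on both) and highest for AMH (10.8 on both), and points of the same number lie close together on both slides.

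The 5 HPGD probes had fitted changes of -2.87, -2.23, -1.13, -0.95 and -0.21 at 6 h, in order of falling mean intensity. At 22 h the same probes gave -2.97, -2.25, -1.15, -1.02 and -0.23. Of the 5, 3 were called at each time. Without replicate 4 a further probe passed at both times, with -1.52 at 6 h and -1.53 at 22 h (adjusted p = 0.0149 and 0.0138). For that probe replicate 4 had ratios of 0.11 at 6 h and 0.03 at 22 h, while the ratios of replicates 1 to 3 lay between -1.89 and -1.09. With the mean of the 5 probes as the value of the gene, HPGD fell by 1.48 at 6 h and by 1.52 at 22 h (adjusted p = 0.00215 and 0.00213). Counted by probe, 6 of the 15 probes were called at 6 h, against 17.7% of all tested probes. At 22 h 10 of the 15 were called, against 14.2%, and 6 of the 15 differed between 22 h and 6 h, against 10.8%. Since 5 of the 15 probes were of HPGD and 3 of PTGS2, these counts can take the change of 1 gene more than once.

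**Figure D3:**
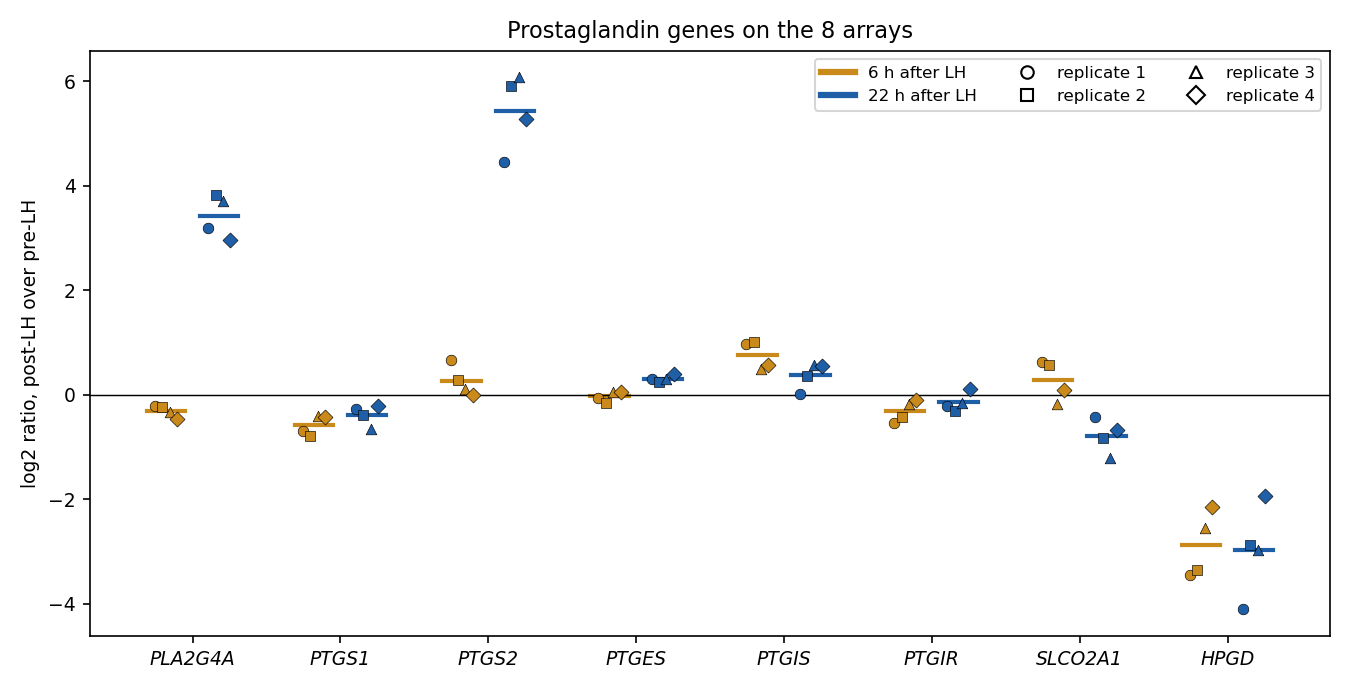
Log2 ratio of post-LH over pre-LH RNA (y axis) for the 8 prostaglandin genes (x axis), with 1 point per array at 6 h and at 22 h and a horizontal line at the fitted change. Points of PTGS2 at 22 h lie between 4.46 and 6.07 and those of PLA2G4A between 2.95 and 3.83, while HPGD lies between -4.10 and -1.94 at both times.

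In time order, PTGS2 and PLA2G4A had no called change at 6 h and were high at 22 h, and PTGES showed the same order with a far smaller change. HPGD was low at 6 h and at 22 h, with no called difference between these times. SLCO2A1 had no called change at 6 h and was low at 22 h. PTGIS was high at 6 h, and its 22 h level differed from neither neighbour by a called change. PTGS1 was low at both times and PTGIR was low at 6 h, with no called difference between the post-LH times for either. Time and slide cannot be told apart in a comparison of 22 h with 6 h.

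The rest of the prostaglandin pathway was counted by list, on the brightest probe of each gene. Beside these counts, 11.6% of all tested genes rose and 12.8% fell at 6 h, and 9.82% rose and 10.7% fell at 22 h. Of 10 further tested genes of synthesis, 1 rose at 6 h, and 1 rose and 1 fell at 22 h. TBXAS1, the thromboxane synthase, rose at 6 h (0.44, adjusted p = 0.00401) and fell at 22 h (-0.34, adjusted p = 0.0128). CBR3, a carbonyl reductase, rose at 22 h (0.20, adjusted p = 0.0141). PTGES2, another prostaglandin E synthase, was not called in any of the 3 comparisons (-0.06 at 6 h and -0.07 at 22 h). The 4 probes of PTGES3, the cytosolic prostaglandin E synthase, disagreed on the call. Its brightest probe was not called (0.37 at 6 h and -0.17 at 22 h), while 2 of the 4 were called higher at 6 h (0.37 and 0.20) and lower at 22 h (-0.36 and -0.29). The list medians were -0.0506 at 6 h and -0.0148 at 22 h.

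Of 8 tested receptor genes, none rose, 2 fell at 6 h and 1 fell at 22 h. TBXA2R, the thromboxane receptor, fell at 6 h (-0.76, adjusted p = 0.0121), as did PTGFRN, a membrane protein that binds the prostaglandin F receptor (-1.31, adjusted p = 0.00353, called for 2 of its 3 probes). PTGDR, a prostaglandin D receptor, fell at 22 h (-0.89, adjusted p = 0.00224). The prostaglandin E receptors PTGER1 to PTGER4 were not called in any of the 3 comparisons, with changes between -0.22 and 0.10 against pre-LH. PTGER1 and PTGER2 gave dim signals (mean log2 intensity 7.32 and 7.22), so a change in them could be missed. The list medians were 0.0379 at 6 h and -0.162 at 22 h.

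Of 6 further genes of transport and breakdown, 1 fell at 6 h and 1 rose at 22 h. PTGR1, a reductase that acts after HPGD on prostaglandins and also on leukotriene B, fell at 6 h (-1.76, adjusted p = 0.000947) and was higher at 22 h than at 6 h by 1.59 (adjusted p = 0.00918). PTGR2, a reductase of the same family, rose at 22 h (0.63, adjusted p = 0.0305). The list medians were -0.0931 at 6 h and 0.0278 at 22 h.

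Of 21 tested genes of arachidonate release and handling, 4 rose and 4 fell at 6 h, and 3 rose and 1 fell at 22 h. At 6 h the phospholipases PLA2G2D1 (0.65) and PLA2G7 (0.58), each called for 1 of 2 probes, the patatin-like lipase PNPLA8 (0.40) and ACSL4 (0.55), which activates arachidonate, rose. PLA2G6, a calcium-independent phospholipase A2 (-0.96), PLAA, the phospholipase A2 activating protein (-0.58), ANXA1 (-0.73) and S100A10 (-0.78) fell. At 22 h PLA2G16 (0.89), S100A10 (0.46) and PLA2G7 (0.28) rose and PLA2G12A (-0.43, called for all 3 of its probes) fell. S100A10 was thus called in opposite directions at the 2 times, and the difference of 1.24 was called (adjusted p = 0.002). None of these genes approached the 3.42 of PLA2G4A at 22 h, and the list medians were 0.0376 at 6 h and 0.0319 at 22 h. Of 14 tested genes of the leukotriene branch, the other main use of arachidonate, 1 rose and 2 fell at 6 h and 1 fell at 22 h. They were CYSLTR2, a leukotriene receptor near background (0.33 at 6 h), PTGR1, which this list shares, and the dipeptidase DPEP2 (-0.73 at 6 h and -0.81 at 22 h). The medians of the leukotriene list were 0.0062 at 6 h and -0.0356 at 22 h.

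**Figure D4:**
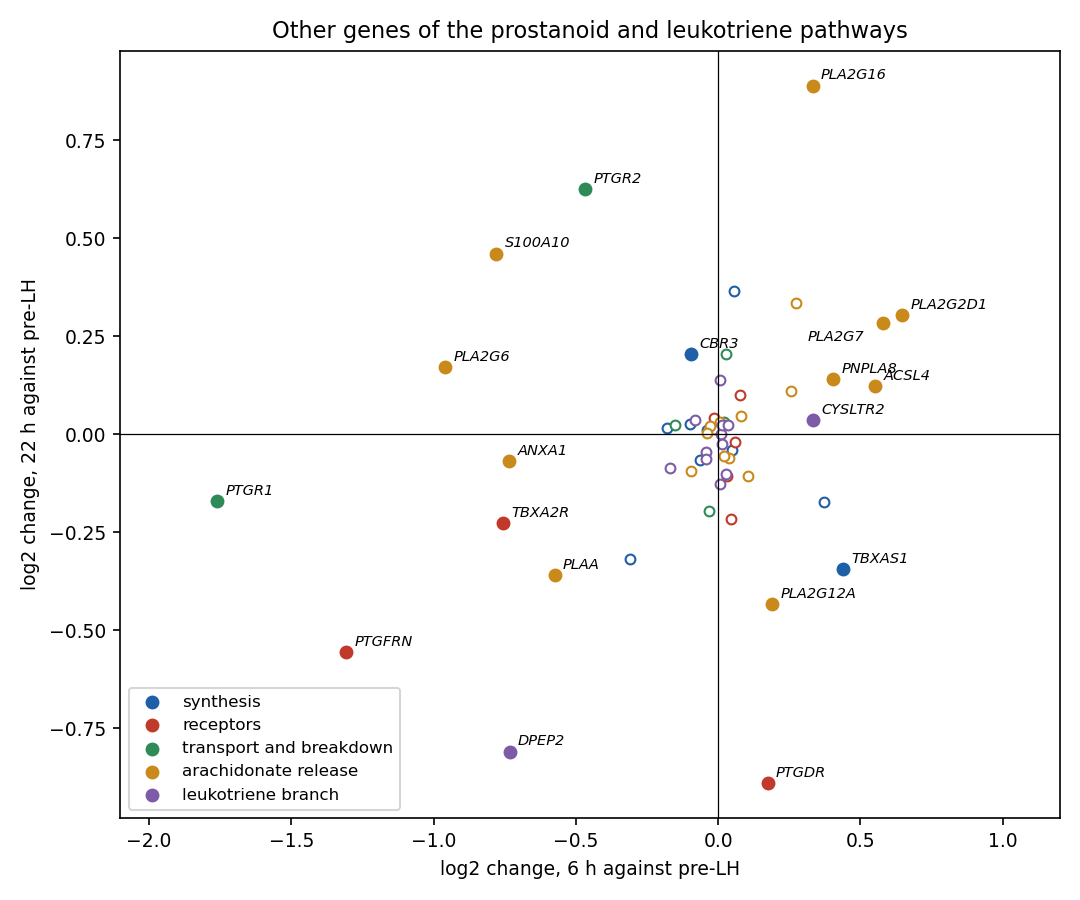
Log2 change at 22 h against pre-LH (y axis) plotted against log2 change at 6 h against pre-LH (x axis) for the tested genes of the other prostaglandin, arachidonate release and leukotriene lists, coloured by list. Genes called in at least 1 of the 3 comparisons are filled and labelled, and the others are open circles. Most points lie close to 0 on both axes. PTGR1 (-1.76 at 6 h) and PTGFRN (-1.31 at 6 h) lie farthest to the left.

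A list of 20 tested genes known to act on PTGS2 transcription or mRNA in granulosa or other cells had 11 members that rose and 0 that fell at 6 h, and 6 that rose and 1 that fell at 22 h. Of all tested genes 11.6% rose and 12.8% fell at 6 h, and 9.82% rose and 10.7% fell at 22 h. The list medians were 0.348 at 6 h and 0.192 at 22 h. The progesterone receptor PGR rose at 6 h (3.32) and fell at 22 h (-0.44), with 22 h lower than 6 h by a called -3.76. FOSL1, an AP-1 subunit, rose at 6 h (3.06), NFKB1, an NF-kB subunit, rose at 6 h (0.75), and both were lower at 22 h than at 6 h (-1.98 and -0.67). EGR1, an immediate early transcription factor, rose at both times (3.45 and 2.51) and was also lower at 22 h than at 6 h (-0.95, adjusted p = 0.0193). Rises at both times were also called for the transcription factor CEBPD (1.86 and 1.85), JUNB (0.80 and 0.83) and FOS (2.03 and 2.40, called for 1 of its 2 probes). JUN (0.36), the EGF-like ligand AREG (1.39) and the RNA-stabilising protein ELAVL1 (0.30, 1 of 3 probes) rose at 6 h, and the AP-1 subunit FOSL2 rose at 22 h (0.41). ZFP36, which promotes decay of AU-rich mRNAs, rose by 0.59 at 6 h and by 1.40 at 22 h and was the sole list member higher at 22 h than at 6 h (0.81, adjusted p = 0.0354).

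Cell type markers moved at the same times, and their counts stand beside the same shares of all tested genes. Of 12 granulosa markers, 1 rose and 7 fell at 6 h and 2 rose and 5 fell at 22 h. The mean level of that list was 11.1 to 11.4 in pre-LH RNA, 10.6 to 10.9 in 6 h RNA and 10.3 to 11.1 in 22 h RNA. Of 10 theca markers, 1 rose and 5 fell at 6 h and 2 rose and 6 fell at 22 h, with a mean level of 10.8 to 11.2 in pre-LH RNA, 10.3 to 10.7 in 6 h RNA and 10.5 in 22 h RNA. CYP17A1, the theca enzyme of androgen synthesis, rose by 0.36 at 6 h and fell by 1.88 at 22 h. Of 13 tested endothelial markers, 2 rose and 1 fell at 6 h and 6 fell at 22 h, with a mean level of 8.92 to 9.43 in pre-LH RNA, 8.92 to 9.43 in 6 h RNA and 8.70 to 9.25 in 22 h RNA. Of 14 tested leukocyte markers, 5 rose at 6 h and 1 fell at 22 h, with a mean level of 7.65 to 7.97 in pre-LH RNA, 7.96 to 8.11 in 6 h RNA and 7.63 to 8.01 in 22 h RNA. Of 14 fibroblast and smooth muscle markers, 1 rose at 6 h, and 1 rose and 1 fell at 22 h. Of 3 tested platelet markers 0 were called, and of 5 tested cumulus-oocyte markers 1 rose at 6 h and 0 were called at 22 h. Endothelial cells and leukocytes also express PTGIS, PTGIR, PTGS1, TBXAS1 and SLCO2A1, and the part of these cells in the changes was not tested.

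Over the 8 arrays, the ratios of PTGS2 and of HPGD were each compared with those of 967 other genes, after removal of the dye effect. These other genes changed by at least 1 log2 unit with a call at 6 h or 22 h. The 8 arrays share 2 slides and, by the design text's count, pre-LH samples, so the correlations only describe likeness. The genes most like PTGS2 were APPL2 (r = 0.999), NXPE3, HS3ST5 and TMEM192 (each r = 0.996) and IGSF1 (r = 0.995). APPL2 changed by 0.27 at 6 h, which was not called, and rose by 2.82 at 22 h. HS3ST5, a heparan sulfate sulfotransferase, changed by 0.04 at 6 h, which was not called, and rose by 3.82 at 22 h. TMEM192 shared the shape and not the values, since it fell at 6 h (-1.02) and rose at 22 h (0.41). The genes most like HPGD were GLUL, the glutamine synthetase (r = 0.904), LOC100299139 (r = 0.895), KIF20B (r = 0.891), SRGN and LOC782598 (each r = 0.876). GLUL fell at both times, with changes of -1.68 at 6 h and -1.81 at 22 h.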

How the data were processed

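Per the file headers, the scanner files give the unnormalised intensity of each spot and of its surround in Cy3 and Cy5. RNA was linearly amplified and chemically dyed before hybridisation, per the labels' protocols. The authors' deposited table held log2 values per probe and array. Set against the scanner ratios (r from 0.856 to 0.908, medians from -0.016 to 0.00502, slopes from 1.08 to 1.3), it was read as post-LH over pre-LH ratios centred near 0; how it was made is not given in the sources used here. It served only as an alternative.

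Mean spot intensities were corrected with normexp (offset 50), normalised by loess within each array with control spots at weight 0, and turned to post-LH over pre-LH, in limma 3.58.1 under R 4.3.3. Levels by channel were taken after loess and Aquantile scaling. Of 45220 spots, 1426 were not probes. A probe was tested when its intensity exceeded the 95th percentile of 153 negative controls on a share of 0.5 or more of the arrays, in any of the 3 RNA groups. Gene symbols were those of the platform annotation with old names replaced from the reference table; 21790 probes had 1 and 22004 had none. One model held a common dye effect, a 6 h and a 22 h coefficient (5 residual degrees of freedom, prior 1.96). The Benjamini-Hochberg adjustment ran over every tested probe, and calls were made under 0.05. The number of arrays limits the precision. The fit was tested on simulated data. No genome of the array's build was used, so no coordinates are given.

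Every probe of the 8 genes is accounted for. Genes of the pathway lists were named when they passed in at least 1 of the 3 comparisons, and likeness genes were the 5 with the highest Pearson correlation; prostaglandin E synthases and receptors without a call on their brightest probe were named in addition, after their values were seen. The members and all lists were chosen with earlier results of these data known. The main fit did not pair samples by the replicate numbers of the labels. Pairing by number was used in the alternative with a block and in the correlations that follow. Deviations from the group means correlated between same-numbered arrays with r from 0.23 to 0.562. After removal of the dye effect, which is fixed within a number, these were -0.301 to 0.194. For arrays of the same dye, that removal forces the summed residuals at 6 h and at 22 h to cancel. This pushes the correlations between the times towards negative values. The drop therefore cannot show whether equal numbers share more than the dye. Alternatives covered background, normalisation, filter, dye, block, probe choice and left-out replicates.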

Additional observations from a re-analysis of the deposited data

Results flagged for a closer look

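Differences between the changes at 22 h and at 6 h passed the limma test for 6 of the 15 probes. They were 3.74 for PLA2G4A, 0.33 for PTGES and -1.06 for SLCO2A1. The fitted differences of the 3 PTGS2 probes were 5.17, 3.03 and 0.27. These have no exact size, since pre-LH RNA was below background at 6 h for all 3 probes, and both dimmer probes were above background only in 22 h RNA.

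Single samples far from the other 3 of their group were found in 6 of 90 groups of 4 values by Dixon's test, of which chance would mark about 1 in 20. The second PTGS2 probe at 6 h had a ratio of 0.25 in replicate 1, against -0.006 to 0.04 in the others, and a 6 h level of 6.83, against 6.62 to 6.65. These values were below background. In 22 h RNA the same probe had a level of 9.44 in replicate 4, against 10.09 to 10.15. HPGD in 6 h RNA had a level of 8.05 in replicate 4, against 9.01 to 9.06. In pre-LH RNA, replicate 4 had a PTGS1 level of 7.96 on the 22 h slide, against 8.56 to 8.67. Its PLA2G4A level on the 6 h slide was 8.27, against 8.67 to 8.71. Replicate 4 thus accounts for 4 of these 6 values.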

How the results depend on the processing

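Across the alternatives, 468 of the recomputed values kept their direction and side of the threshold, 18 lost a call, 6 gained one and 4 changed sign. The calls of PTGS2 and PLA2G4A at 22 h and of HPGD at both times held in all 21 alternatives. With median centring in place of loess, the count of called genes among the 8 dropped to 1 at 6 h (4 with loess), 3 at 22 h (6 with loess) and 2 for the difference of the times (4 with loess); the cause was not tested. The calls lost were those of PTGS1, PTGIS and PTGIR at 6 h, of PTGS1, PTGES and SLCO2A1 at 22 h, and of PTGES and SLCO2A1 for the difference, with changes of the same direction and similar size. The sign changes concerned uncalled values. PTGES at 6 h was 0.012 without background correction and 0.0583 from the authors' deposited log2 ratios, and HPGD between the times ranged from -0.35 to 0.14 with single replicates left out; the causes were not tested. Leaving out single replicates left 4 called genes at 6 h, 5 to 7 at 22 h and 4 to 5 for the difference of 22 h and 6 h. With the replicate number as a block, PTGS1 at 22 h lost its call (-0.38, adjusted p = 0.053), and no other call among the 8 genes changed. Since that block leaves the spread between replicate numbers out of the SE, it is no check of shared pre-LH samples for changes against pre-LH. PTGIR at 22 h passed without background correction (-0.23, adjusted p = 0.0351). PTGS1 between the times passed without 22 h replicate 3 (0.33, adjusted p = 0.0451). Signals near background limit the size of the PTGS2 fold and what can be said of its dimmer probes.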
